A study of Mus musculus with 6 samples.

Results

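Vomeronasal receptor genes are the mouse genes whose symbols start with Vmn1r or Vmn2r, and their DNA methylation was measured here in endothelial cells of the lung. Members were the 1 kb tiles of the deposited methylation table that overlap a RefSeq protein-coding gene of either family (mm10). They numbered 2031 of 1954255 tiles, 330 in Vmn1r genes and 1701 in Vmn2r genes. The gene table lists 355 such genes among 21900 protein-coding genes, 231 Vmn1r and 124 Vmn2r, and 278 of them had a tile, 162 Vmn1r and 116 Vmn2r. Of the 77 genes with no tile, 1 lay on a chromosome that was not measured, 3 lay before the first tile of their chromosome, and the others, 67 Vmn1r and 6 Vmn2r genes, had no tile over them.

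The study set 3 samples from Dnmt3a knockout mice (KO) against 3 samples from wild-type mice (WT). In each, endothelial cells had been sorted from lung and their DNA read by whole-genome bisulfite sequencing, which tells methylated from unmethylated cytosines. The labels give neither the allele or Cre line behind the knockout, nor age or sex, nor whether each sample is 1 animal, so each p-value below speaks of the variation among the 6 samples, part of which may be technical. The deposited value is a methylation level per tile and sample, printed here in percent, and differences are KO minus WT in percentage points.

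The receptors encoded by both families sit on sensory neurons of the vomeronasal organ, where they detect pheromones and other social cues. Vmn1r genes encode V1R receptors, whose coding sequence has no intron and which signal through the G protein subunit encoded by Gnai2. Vmn2r genes encode V2R receptors, which carry a large extracellular domain, have coding sequence split over several exons and signal through the subunit encoded by Gnao1. Both families lie in tandem clusters. Dnmt3a encodes an enzyme that places methyl groups on cytosines not methylated before, mostly where a guanine follows (CpG).

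Levels over the whole genome were lower in KO. The mean over all tiles was 63.7% ± 0.140 in KO and 69.0% ± 0.451 in WT (SD, n = 3 each), a difference of -5.36 points with no overlap between the groups. Because of this shift, the family and cluster means, the counts of calls, the named genes and tiles and the gene lists were also computed after centring each sample on its median and after scaling samples to 1 mean level. Centring moved the median difference of all protein-coding genes to -0.14 points, against -5.03 as deposited, and scaling moved it to 0.10. The table holds no read counts, so depth is unknown and no counting interval can be given. In a pool of sorted cells, fewer methylated cells and fewer methylated sites per cell cannot be told apart. As a check of the labelled cell type, the less methylated end of each marker gene was read (tiles within 1000 bp). The median over 8 endothelial markers was 9.83% in KO and 16.6% in WT, while 6 leukocyte markers stood at 58.1% in KO and 62.5% in WT, with none under 10% in WT. The ends of epithelial (13.9% in KO, 23.6% in WT), mesenchymal (5.35% in KO, 15.1% in WT) and neuronal markers (14.8% in KO, 18.4% in WT) were low as well, and CpG-rich gene starts can be unmethylated in cells that do not use the gene.

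Windows at the annotated starts of vomeronasal receptor genes held few CpG sites. RefSeq start windows of 300 bases (250 before the start and 50 after it, GRCm38.p6) were matched for 206 Vmn1r genes, 1 window each, and for 117 Vmn2r genes with 118 windows. They held 1.505 CG dinucleotides on average in Vmn1r and 1.49 in Vmn2r genes, against 16.3 in protein-coding genes outside these families and the olfactory receptors. Windows of olfactory receptor (Olfr) genes were as poor, with 1.29 CG on average and at least 1 CG in 66.7%. At least 1 CG stood in 78.6% of Vmn1r and 71.2% of Vmn2r windows, against 95.4% of windows of all protein-coding genes (CG reads the same on both strands). The windows of 6 genes are shown, chosen by the calls of the gene or its start-site tile or by a high CG content. Capitals mark CG dinucleotides, and each run reads 5′ to 3′ along the gene's own strand. Vmn1r59 (chr7:5454710-5455009, minus strand) and Vmn1r227 (chr17:20734956-20735255, plus strand) are the called Vmn1r genes with the smallest p. The window of Vmn1r54 (chr6:90268856-90269155, plus strand) has the most CG of any Vmn1r gene. Vmn2r50 (chr7:10053129-10053428, minus strand) and Vmn2r91 (chr17:18084807-18085106, plus strand) have the only start-site tiles of either family that were called, and Vmn2r29 (chr7:7278240-7278539, minus strand) has the most CG of all.
Vmn1r59: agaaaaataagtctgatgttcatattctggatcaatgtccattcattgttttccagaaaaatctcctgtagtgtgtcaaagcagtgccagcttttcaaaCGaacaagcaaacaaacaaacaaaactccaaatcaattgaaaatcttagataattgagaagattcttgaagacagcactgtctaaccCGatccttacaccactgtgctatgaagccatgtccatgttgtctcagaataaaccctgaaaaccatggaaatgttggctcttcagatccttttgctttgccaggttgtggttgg
Vmn1r227: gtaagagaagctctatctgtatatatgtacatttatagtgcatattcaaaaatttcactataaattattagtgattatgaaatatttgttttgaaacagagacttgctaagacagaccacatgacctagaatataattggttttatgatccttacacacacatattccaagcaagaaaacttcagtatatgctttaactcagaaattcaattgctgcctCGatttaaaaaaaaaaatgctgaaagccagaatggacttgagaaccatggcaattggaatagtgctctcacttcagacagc
Vmn1r54: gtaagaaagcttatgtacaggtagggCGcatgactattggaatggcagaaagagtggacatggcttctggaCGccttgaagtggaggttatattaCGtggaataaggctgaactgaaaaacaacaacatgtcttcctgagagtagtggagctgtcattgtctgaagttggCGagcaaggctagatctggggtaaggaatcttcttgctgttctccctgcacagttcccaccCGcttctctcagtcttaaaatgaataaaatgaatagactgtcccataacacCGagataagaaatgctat
Vmn2r50: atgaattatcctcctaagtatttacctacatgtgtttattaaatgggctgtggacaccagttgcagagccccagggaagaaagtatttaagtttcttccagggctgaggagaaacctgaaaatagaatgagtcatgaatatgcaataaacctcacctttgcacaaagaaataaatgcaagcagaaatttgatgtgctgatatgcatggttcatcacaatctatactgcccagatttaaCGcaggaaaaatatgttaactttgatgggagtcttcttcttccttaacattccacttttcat
Vmn2r91: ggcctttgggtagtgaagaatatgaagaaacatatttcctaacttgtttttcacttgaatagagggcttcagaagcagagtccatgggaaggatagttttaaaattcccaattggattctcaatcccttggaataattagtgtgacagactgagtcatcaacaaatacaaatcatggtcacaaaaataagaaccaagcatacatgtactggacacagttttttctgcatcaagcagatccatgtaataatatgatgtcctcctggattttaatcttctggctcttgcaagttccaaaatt
Vmn2r29: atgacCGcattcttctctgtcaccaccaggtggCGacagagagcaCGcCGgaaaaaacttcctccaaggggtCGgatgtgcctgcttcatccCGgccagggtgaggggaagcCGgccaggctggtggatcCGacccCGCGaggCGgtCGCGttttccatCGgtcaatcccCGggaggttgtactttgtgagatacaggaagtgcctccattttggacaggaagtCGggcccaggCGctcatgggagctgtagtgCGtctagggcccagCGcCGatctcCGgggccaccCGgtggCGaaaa
The 3 Vmn1r windows hold 2, 1 and 6 CG, that of Vmn2r50 holds 1, that of Vmn2r91 holds 0 and that of Vmn2r29 holds 23, with 62.3% G and C. In all but that of Vmn2r29 the last 50 bases open with atg, so the annotated start may be that of the coding sequence. How many other windows start there was not counted. The averages above may therefore set coding starts beside transcript starts of other genes.

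No tile at an annotated start of either family was under 10%. A tile covered the start of 94 Vmn1r genes, and their levels in the mean of all samples lay between 28.9 and 75.0%. For Vmn2r genes 62 start-site tiles lay between 33.6 and 70.8%. The mean over Vmn1r start-site tiles was 55.9% ± 0.245 in KO and 57.3% ± 0.659 in WT, and over Vmn2r start-site tiles 53.8% ± 0.776 in KO and 54.2% ± 1.28 in WT (SD, n = 3 each). Those of Olfr genes were methylated as well, at 61.8% ± 0.551 in KO and 63.5% ± 0.584 in WT. Start-site tiles of protein-coding genes outside these 3 groups averaged 20.7% ± 0.123 in KO and 24.7% ± 0.176 in WT. The starts are annotated ones, and those of receptor genes may be starts of the coding sequence, so the groups may not be alike. The start-site tile of Vmn2r50 was at 45.8, 36.6 and 36.6% in KO and 59.0, 60.8 and 50.8% in WT, and it fell by 17.2 points (limma, Benjamini-Hochberg adjusted p = 0.00722). Every KO sample was below every WT sample there. The start-site tile of Vmn2r91 was at 73.4, 66.2 and 76.7% in KO and 57.4, 60.8 and 59.1% in WT, a rise of 13.0 points (limma, adjusted p = 0.0246) that was lost without any 1 of 4 samples. That tile runs from 18085001 to 18086000, and the window shown holds 0 CG, so any CG in the tile lies outside the window. The 1 kb tile over the CG-rich start of Vmn2r29 was at 63.4, 57.7 and 56.9% in KO and 44.2, 49.8 and 49.97% in WT. Its groups did not overlap, and the difference of 11.3 points missed the threshold (limma, adjusted p = 0.0635). Another start window of Vmn2r29, from 7247279, held 0 CG and had no tile.

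Mean levels of both families stood close together in KO and WT, and much closer than those of the genome. Vmn1r tiles averaged 57.5, 57.9 and 57.8% in KO and 59.4, 59.5 and 58.9% in WT. The groups did not overlap, and the difference was -1.54 points on the deposited scale, 3.35 after centring and 3.19 after scaling. With equal weight for each gene it was -1.004 points, and over tiles wholly inside genes -2.31 points. Vmn2r tiles averaged 57.3, 57.7 and 57.7% in KO and 58.5, 58.4 and 57.4% in WT. Here the groups overlapped, since the third WT sample lay among the KO samples, and the difference was -0.57 points as deposited, 4.32 after centring and 4.11 after scaling. Without WT replicate 3 the Vmn2r difference was -0.929 points, and without WT replicate 1 it was -0.361. Tiles of 193 Vmn genes that RefSeq lists as pseudogenes, which were no members, differed by -1.24 points.

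**Figure D1:**
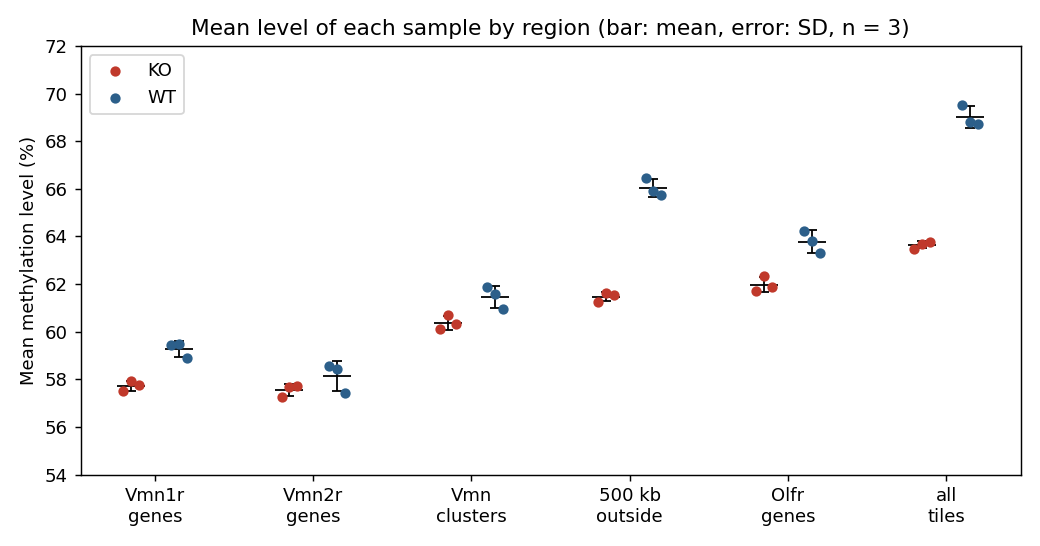
Mean methylation level in percent (vertical axis, starting at 54%) of each KO and WT sample over tiles of Vmn1r genes, Vmn2r genes, Vmn clusters, the 500 kb outside them, Olfr genes and all tiles; bars give the mean ± SD of 3 samples. The gap between KO and WT points is 1.54 points for Vmn1r and 0.57 for Vmn2r genes as deposited, against 4.55 outside the clusters and 5.36 over all tiles; after centring or scaling, both families lie higher in KO.

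Vmn1r and Vmn2r genes differed little from each other. Within a sample, the Vmn1r mean minus the Vmn2r mean was 0.256, 0.245 and 0.0245 points in KO and 0.901, 1.05 and 1.48 points in WT. The groups did not overlap, and the difference of -0.970 points had a two-sided exact permutation p of 0.10, the smallest that 3 against 3 samples allow. With each gene given equal weight it was -0.246 points (exact permutation p = 0.40), and with tiles wholly inside genes it was -1.75 points (exact permutation p = 0.20). Most Vmn1r genes are short, with a median length of 924 bp and 2 tiles, against 24392 bp and 13 tiles for Vmn2r genes. Their tiles therefore reach past the gene more often, and just 24 Vmn1r genes had a tile wholly inside.

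Against the rest of the genome the difference was larger than its spread. The mean over vomeronasal receptor tiles minus the mean over all other tiles was -6.20, -5.97 and -6.04 points in KO and -10.8, -10.2 and -11.1 points in WT. The receptor tiles were thus below the genome in every sample, by less in KO, and the difference of 4.64 points had an exact permutation p of 0.10. Over tiles more than 50 kb from an unmethylated valley (a tile under 10% in the mean of all samples) it was 3.02 points. The olfactory receptors, the other large chemoreceptor family, were at 62.0% ± 0.327 in KO and 63.8% ± 0.466 in WT over 2340 tiles of Olfr genes, a difference of -1.81 points as deposited and 3.08 after centring. Vomeronasal minus olfactory receptor tiles stood at -4.39, -4.60 and -4.16 points in KO and -5.54, -5.21 and -5.65 points in WT. This put the vomeronasal family nearer to the olfactory one in KO by 1.09 points (exact permutation p = 0.10), a value that was 0.629 with equal weight per gene and 0.688 after scaling.

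Few single tiles of the receptor genes were called as changed. A tile was called at a limma Benjamini-Hochberg adjusted p under 0.05 over all tiles and a difference of at least 10 points, which 16.2% of all tiles met with a loss and 0.0796% with a gain. Of the 330 Vmn1r tiles 0 fell and 0 rose (18 were lower and 4 higher at an unadjusted p under 0.05). At that unadjusted threshold 579489 of all 1954255 tiles were lower and 12334 higher. Without the variance trend limma called 2 Vmn1r tiles lower, and without the 10-point minimum 1. Of the 1701 Vmn2r tiles 22 fell, or 1.29%, and 5 rose, or 0.294%. After centring 2 were lower and 47 higher, and after scaling 3 lower and 53 higher, so the direction of these counts turned. Over all tiles 6.64% were lower and 0.931% higher after centring, and 6.58% and 1.57% after scaling. As deposited, the number of Vmn2r tiles that fell was 9 to 13 when 1 sample was left out, and each of the 6 samples lowered it to 13 or fewer. The median difference was -1.42 points over Vmn1r tiles and -0.57 over Vmn2r tiles, against -4.05 over all tiles. The KO samples were all lower than the WT samples in 11.8% of Vmn1r and 7.05% of Vmn2r tiles, against 31.6% of all tiles. They were all higher in 3.03% of Vmn1r and 3.998% of Vmn2r tiles, against 1.54% of all tiles. The spread within groups was similar, with a median SD of 4.15 points in Vmn1r, 4.71 in Vmn2r and 4.14 in all tiles.

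The 22 tiles that fell lay in 13 Vmn2r genes, and 12 of them stood next to another. The largest losses lay in Vmn2r1, which belongs to the small V2R family C, whose receptors are expressed widely over V2R neurons together with other V2Rs. The tile on chromosome 3 from 64205001 to 64206000 was at 32.8, 38.6 and 42.0% in KO and 62.7, 68.0 and 65.5% in WT. The groups were far apart, and the level fell by 27.6 points (limma, adjusted p = 7.15e-05). The tile from 64203001 was at 38.8, 42.2 and 54.01% in KO and 62.7, 69.2 and 69.5% in WT, and fell by 22.2 points (limma, adjusted p = 0.00160). That from 64202001 was at 41.7, 45.7 and 53.5% in KO and 59.5, 66.7 and 62.6% in WT, and fell by 16.001 points (limma, adjusted p = 0.0129). These tiles lie inside the gene, which the table places from 64078172, so the losses stand far from its start window at 64081392. Over the 90 Vmn2r1 tiles that were not called the level was 64.0, 64.3 and 63.3% in KO and 63.3, 62.0 and 63.1% in WT, and the groups overlapped. Another called tile of the gene stood apart from these, from 64185001, at 56.1% ± 2.996 in KO and 69.6% ± 5.08 in WT (limma, adjusted p = 0.0249). Next to the run of losses, the tile from 64201001 differed by -6.02 points and that from 64207001 by 1.02 points, neither with a call (limma, adjusted p = 0.362 and 0.905). A little farther on, the tile from 64208001, singled out after its values were seen, was at 70.6, 71.5 and 64.7% in KO and 58.8, 60.6 and 53.4% in WT, without a call (limma, adjusted p = 0.0550).

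Losses were also called in Vmn2r24 and Vmn2r50. In Vmn2r24 the tile on chromosome 6 from 123793001 was at 36.7, 25.5 and 32.8% in KO and 46.4, 46.6 and 47.5% in WT (limma, adjusted p = 0.00604), and its neighbour from 123794001 was at 41.6, 30.0 and 35.3% in KO and 51.3, 50.6 and 48.5% in WT (limma, adjusted p = 0.0121). Both lost 14.5 to 15.2 points without overlap, and both calls were lost without KO replicate 2 and after centring (limma, adjusted p = 0.0973 and 0.146). After scaling the first was kept and the second lost (limma, adjusted p = 0.0469 and 0.0845). The Vmn2r50 tile described with its start window lay between the 2 Vmn2r24 tiles by p. After centring or scaling it no longer passed, while the Vmn2r1 tiles from 64205001 and 64203001 passed after centring, after scaling and without any 1 sample. When 1 sample was left out, fewer Vmn2r tiles were called lower, and each of the 5 gains lost its call in at least 1 such fit. These gains kept differences of 8.99 points or more. Besides the start-site tile of Vmn2r91 they were its neighbour on chromosome 17 from 18086001 (73.5, 68.2 and 70.8% in KO, 54.5, 62.8 and 60.9% in WT), 1 tile in Vmn2r104 (43.1% ± 4.92 in KO, 31.2% ± 7.40 in WT), 1 in Vmn2r117 (57.7% ± 0.381 in KO, 44.8% ± 6.93 in WT) and 1 in Vmn2r53 (68.6% ± 2.03 in KO, 57.3% ± 2.87 in WT). Each gained 11.4 to 13.0 points in limma at adjusted p-values of 0.0246 to 0.0467. Each call was lost when certain samples were left out, 4 of 6 samples for the first Vmn2r91 tile and Vmn2r104, 5 for the second Vmn2r91 tile and Vmn2r117, and all 6 for Vmn2r53.

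Averaged over their tiles, most receptor genes were not called as changed. A gene was called at a limma adjusted p under 0.05 over 20213 protein-coding genes and a difference of at least 5 points, which 48.9% of these genes met with a loss and 0.237% with a gain. Of 162 Vmn1r genes 10 fell, or 6.17%, and 7 rose, or 4.32%. Of 116 Vmn2r genes 2 fell, or 1.72%, and 0 rose (0 also at an unadjusted p under 0.05, and 1 and 2 with limma when KO replicate 1 or WT replicate 1 was left out). The median difference was -1.18 points over Vmn1r and -0.59 over Vmn2r genes, against -5.03 over all genes. It was negative in 105 Vmn1r and 75 Vmn2r genes. The median standard error was 2.63 points for Vmn1r and 1.57 for Vmn2r genes, against 1.02 for all genes. A loss of a given size was thus harder to call in these families, and a gene without a call may still have changed. Without the 5-point minimum 14 Vmn1r genes were lower and 8 higher, and 4 Vmn2r genes lower and 0 higher, against 72.9% and 0.336% of all genes. The KO samples were all lower than the WT samples in 15 Vmn1r and 7 Vmn2r genes and all higher in 7 Vmn1r and 2 Vmn2r genes, against 75.8% and 0.48% of all genes. After centring 0 Vmn1r genes were lower and 25 higher, and 0 Vmn2r genes lower and 28 higher, so the direction of these counts turned. Over all genes 16.8% were lower and 3.20% higher after centring. Of the called Vmn1r genes 9 lower and 7 higher ones had 1 or 2 tiles, as did 146 of the 162 measured Vmn1r genes. Among all 1990 protein-coding genes with 1 or 2 tiles, 17.1% were lower and 1.91% higher. None of the 74 Vmn2r genes with 10 or more tiles was called, although 1 was lower at an unadjusted p under 0.05, against 53.9% lower among all genes of that size.

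**Figure D2:**
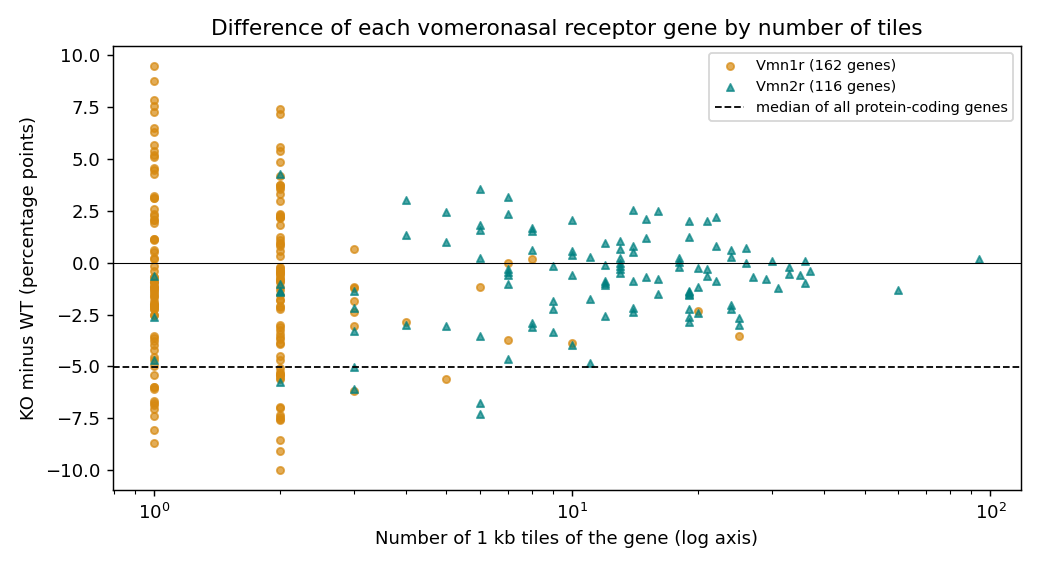
Difference KO minus WT in percentage points (vertical axis) of each of 162 Vmn1r and 116 Vmn2r genes against its number of 1 kb tiles (log axis); the dashed line is the median of all protein-coding genes. Genes with 1 or 2 tiles spread between the largest loss, -9.98 points, and the largest gain, 9.45, and genes with 10 or more tiles keep within -4.81 and 2.55, all above the dashed line at -5.03 (as deposited; after centring that line lies at -0.14).

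The Vmn1r genes are those listed as protein-coding, which include Vmn1r-ps103, a symbol that marks a pseudogene. Among them the largest loss was in Vmn1r124 (chromosome 7, 21259694 to 21260617). It was at 46.1, 53.0 and 50.6% in KO and 55.5, 64.2 and 59.9% in WT, and fell by 9.98 points (limma, adjusted p = 0.0121). Vmn1r227 on chromosome 17 was at 48.0, 46.5 and 47.0% in KO and 53.4, 59.6 and 55.7% in WT, and fell by 9.06 points (limma, adjusted p = 0.00259). In both genes every KO sample lay below every WT sample, and the calls held without any 1 sample. Vmn1r59, one of the least methylated Vmn1r genes with at least 2 tiles, was at 41.0, 41.6 and 40.7% in KO and 49.96, 47.0 and 49.1% in WT, and fell by 7.57 points (limma, adjusted p = 0.00112). Vmn1r204 was at 53.7% ± 0.655 in KO, against 61.1% ± 3.22 in WT, and Vmn1r27 at 58.0% ± 3.30 in KO and 65.0% ± 1.88 in WT; both fell without overlap in limma (adjusted p = 0.00589 and 0.0117). Vmn1r39 was at 64.5, 61.3 and 61.2% in KO and 75.9, 65.2 and 71.5% in WT (limma, adjusted p = 0.0223), a call lost without any 1 of 4 samples. Centring and scaling ended the calls of these 6 genes while leaving the difference negative.

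Vmn1r113 and Vmn1r77 are the called gains among Vmn1r genes with at least 2 tiles; the other 5 called gains lay in genes with 1 tile and reached 9.45 points. Vmn1r113 was at 64.3, 57.7 and 58.2% in KO and 47.9, 54.4 and 56.5% in WT, a rise of 7.15 points (limma, adjusted p = 0.0476). Vmn1r77 was at 59.6, 54.5 and 53.7% in KO and 52.4, 47.8 and 50.9% in WT, a rise of 5.57 points (limma, adjusted p = 0.0382). Neither overlapped, and the calls were lost without any 1 of 5 samples for Vmn1r113 and of 4 for Vmn1r77. Vmn1r180, with 51.2% ± 3.99 in KO and 43.8% ± 9.23 in WT, and Vmn1r232, with 59.3% ± 8.91 in KO and 66.9% ± 5.34 in WT, had differences as large, but their groups overlapped and they were not called (limma, adjusted p = 0.182 and 0.184). Among Vmn1r genes with at least 2 tiles, Vmn1r88 was at the top of the range of levels. It stood at 77.3% ± 3.77 in KO and 77.5% ± 1.83 in WT, Vmn1r1 at 73.1% ± 8.05 in KO and 77.0% ± 3.61 in WT, and Vmn1r14 at 73.5% ± 2.68 in KO and 73.4% ± 0.953 in WT. At the bottom of these, beside Vmn1r59, were Vmn1r61 with 43.3% ± 7.98 in KO and 45.1% ± 2.74 in WT and Vmn1r46 with 44.3% ± 4.70 in KO and 46.5% ± 5.05 in WT. None of these 5 genes was called, and in each the groups overlapped.

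Of the Vmn2r genes, Vmn2r30 on chromosome 7 was at 56.9, 50.4 and 54.8% in KO and 64.1, 59.9 and 60.1% in WT. It fell by 7.31 points without overlap (limma, adjusted p = 0.0133), and the call held without any 1 sample. Vmn2r89 on chromosome 14 was at 49.8, 52.7 and 57.1% in KO and 56.8, 62.5 and 60.6% in WT. Its groups overlapped, and the call (limma, adjusted p = 0.0298) was lost without any 1 of 4 samples; after centring or scaling neither gene was called. Vmn2r67 (56.1% ± 2.21 in KO, 60.9% ± 0.366 in WT) and Vmn2r50 (43.9% ± 2.62 in KO, 48.5% ± 1.80 in WT) passed the threshold on p in limma (adjusted p = 0.0115 and 0.0423) but not the 5-point minimum. Vmn2r51 was at 50.2% ± 0.762 in KO and 54.2% ± 3.66 in WT (limma, adjusted p = 0.0946). On the positive side Vmn2r45 (52.5% ± 3.49 in KO, 49.0% ± 6.63 in WT), Vmn2r14 (51.4% ± 5.09 in KO, 48.3% ± 2.19 in WT) and Vmn2r54 (53.1% ± 2.11 in KO, 50.5% ± 3.77 in WT) differed by less than 4 points with overlap.

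Levels among Vmn2r genes with at least 5 tiles differed more between genes than between KO and WT. Vmn2r87 was at 70.6, 70.6 and 72.5% in KO and 70.4, 68.9 and 68.4% in WT. Its KO samples lay just above its WT samples (limma, adjusted p = 0.0672). Vmn2r83 (68.1% ± 2.16 in KO, 68.2% ± 0.948 in WT) and Vmn2r11 (65.8% ± 1.87 in KO, 68.3% ± 2.33 in WT) followed. The lowest was Vmn2r115 on chromosome 17, at 37.3, 39.6 and 37.8% in KO and 40.1, 39.0 and 37.1% in WT, with Vmn2r44 (46.0% ± 2.13 in KO, 44.4% ± 7.02 in WT) and Vmn2r114 (45.5% ± 2.26 in KO, 46.5% ± 3.32 in WT) above it. In none of these 3 were the groups apart. Over genes, the SD of the mean level was 6.02 points among Vmn2r and 8.26 among Vmn1r genes, and the SD of the KO minus WT difference was 2.14 and 4.04.

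Vomeronasal receptor genes that stood less than 500 kb apart were joined to clusters. There were 23 clusters of 2 or more genes, 22 of them with tiles, holding 344 genes over 23723 kb; 9 genes stood alone. Tiles covered 52.5% of the cluster kilobases, against 81.3% of the measured chromosomes. In the largest cluster, of 86 Vmn1r genes, 52 had no tile. The receptor genes include near-identical copies, and whether reads were shared among them cannot be seen from levels.

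Inside the clusters methylation differed little between the groups, and beyond their borders it differed much more. The 12466 cluster tiles averaged 60.1, 60.7 and 60.3% in KO and 61.9, 61.6 and 61.0% in WT. The groups did not overlap, and their difference was -1.09 points as deposited, 3.80 after centring and 3.84 after scaling. The 15135 tiles up to 500 kb outside averaged 61.3, 61.6 and 61.5% in KO and 66.4, 65.9 and 65.7% in WT, a difference of -4.55 points that became 0.345 after centring and 0.608 after scaling. Within a sample, clusters minus outside came to -1.15, -0.956 and -1.21 points in KO and -4.58, -4.33 and -4.76 points in WT. The clusters thus lay about 1 point below their surroundings in KO and over 4 points below them in WT, and this difference of 3.46 points had an exact permutation p of 0.10. It was 3.23 after scaling and 2.59 with 250 kb outside.

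The small difference was not limited to the receptor genes. Cluster tiles outside the receptor genes differed by -1.16 points, and those in no protein-coding gene and no Vmn pseudogene by -1.02. Tiles of other protein-coding genes that lie inside the clusters were at 67.0, 67.2 and 66.9% in KO and 70.2, 69.7 and 69.4% in WT, a difference of -2.72 points without overlap. Of 66 such genes 16 fell and 1 rose, against 168 and 0 of 430 genes in the 500 kb outside (limma). These shares of losses, 24.2% and 39.1%, stand below the 48.9% of all genes.

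**Figure D3:**
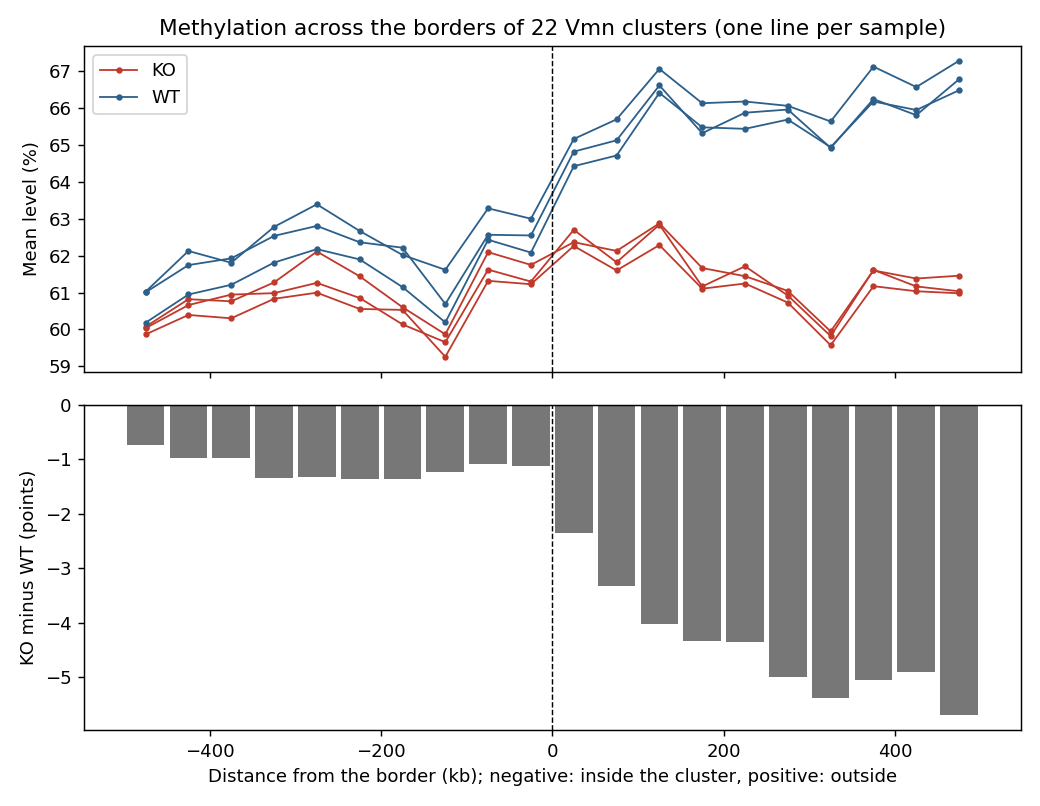
Mean methylation in 50 kb bins across the borders of 22 Vmn clusters, as the level of each KO and WT sample in percent (upper panel) and as KO minus WT in percentage points (lower panel); negative distances lie inside. KO lines stay between 59.3 and 62.9% on both sides while WT lines lie higher outside, and the difference is -1.12 points just inside and -5.69 at 450 to 500 kb outside (as deposited; centring adds the same amount to every bin).

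Levels differed across the border mainly in the WT samples. In the 50 kb just inside, levels were 61.2, 61.7 and 61.3% in KO and 63.0, 62.5 and 62.1% in WT. In the first 50 kb outside they were 62.3, 62.4 and 62.7% in KO and 65.2, 64.8 and 64.4% in WT, and at 450 to 500 kb 61.0, 61.5 and 61.0% in KO and 67.3, 66.8 and 66.5% in WT. No bin had overlap, and bins inside differed by -0.745 to -1.37 points. Outside, the difference was -2.36 points in the first bin, -3.32 in the second and -4.02 in the third, and between -4.33 and -5.69 in the 7 bins beyond. Of 44 borders the loss was larger outside at 33; it was at least 5 points at 14 borders and under 1 point at 10.

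Cluster by cluster the pattern was common but not general. All 22 clusters had a lower mean in KO, with differences between -2.64 and -0.132 points and a median of -0.948, and in 8 of them the groups did not overlap; after centring and after scaling all 22 were higher. Outside, differences lay between -9.56 and -0.245 points with a median of -3.29, and 20 of 22 were without overlap. The loss was smaller inside than outside in 20 clusters, with separate groups in 16 of these. Clusters of Vmn1r genes alone (5 with at least 3 genes) had medians of -0.977 points inside and -7.21 outside. The 10 clusters of Vmn2r genes alone had medians of -0.888 and -2.73 points, and the 4 that hold both families -1.13 and -1.87. With so few clusters these medians are descriptions.

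The largest step stood at the cluster Vmn1r188 to Vmn1r223 with 36 genes (chromosome 13, 22087878 to 23250323). Inside it levels were 62.4, 63.1 and 63.0% in KO and 64.5, 63.6 and 63.4% in WT. The 500 kb outside were at 47.4, 46.8 and 47.2% in KO and 57.4, 56.3 and 56.4% in WT. KO was lower on both sides, with a difference of -0.977 points inside and -9.56 outside. The cluster Vmn1r91 to Vmn1r183 with 86 genes (chromosome 7, 20101158 to 24055691) was at 57.7, 57.8 and 57.5% in KO and 58.5, 58.5 and 58.1% in WT inside, and at 59.7, 59.3 and 59.9% in KO and 68.3, 67.3 and 67.8% in WT outside. Again the groups were apart on both sides, with differences of -0.641 points inside and -8.17 outside.

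Other Vmn1r clusters lay on chromosome 6. Vmn1r40 to Vmn1r54 differed by -0.669 points inside and -7.21 outside, Vmn1r32 to Vmn1r39 by -1.44 and -7.19, and Vmn1r4 to Vmn1r31 by -1.98 and -5.21. Among Vmn2r clusters, Vmn2r80 to Vmn2r83 (chromosome 10) was at 64.4, 65.3 and 64.0% in KO and 66.5, 65.0 and 65.1% in WT inside, with overlap. Its left side differed by -1.81 points and its right side by -9.72. Vmn2r29 to Vmn2r37 (chromosome 7) differed by -0.643 points inside and -5.62 outside, and Vmn2r111 to Vmn2r117 (chromosome 17) by -1.33 and -4.67. Smaller outside losses stood at Vmn2r8 to Vmn2r17 (-0.984 inside, -3.19 outside), Vmn2r19 to Vmn2r27 (-0.463, -3.01), Vmn2r57 to Vmn2r126 (-1.54, -2.44) and Vmn2r77 to Vmn2r79 (-0.420, -1.90). Those at Vmn2r65 to Vmn2r76 (-0.858, -1.89), Vmn2r1 to Vmn2r7 (-0.554, -1.70) and Vmn2r84 to Vmn2r87 (-1.18, -1.27) were the smallest among Vmn2r clusters. The loss outside was larger than that inside in each of them, by 0.0894 points in the last, where the groups overlapped.

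The mixed clusters held the exceptions. Vmn2r90 to Vmn1r237 with 36 genes (chromosome 17, 17703941 to 21314886) differed by -0.775 points inside and -3.38 outside, and Vmn1r55 to Vmn1r65 (chromosome 7) by -1.16 and -5.28. Vmn2r46 to Vmn1r71 (chromosome 7, 9754636 to 10749538) was at 53.99, 54.7 and 54.7% in KO and 54.9, 57.1 and 54.6% in WT inside, and at 60.4, 62.5 and 62.1% in KO and 61.4, 62.1 and 62.3% in WT outside, with overlap on both sides. Vmn1r72 to Vmn1r89 (chromosome 7, 11669599 to 13220289) was at 60.7, 61.3 and 60.7% in KO and 63.4, 62.6 and 62.4% in WT inside. Outside, the groups overlapped at 63.0, 64.4 and 63.3% in KO and 64.1, 63.8 and 63.8% in WT. Here the loss inside was the larger one, with -1.88 points against -0.361 outside. These 2 clusters are neighbours, so part of what lies outside one is close to the other.

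**Figure D4:**
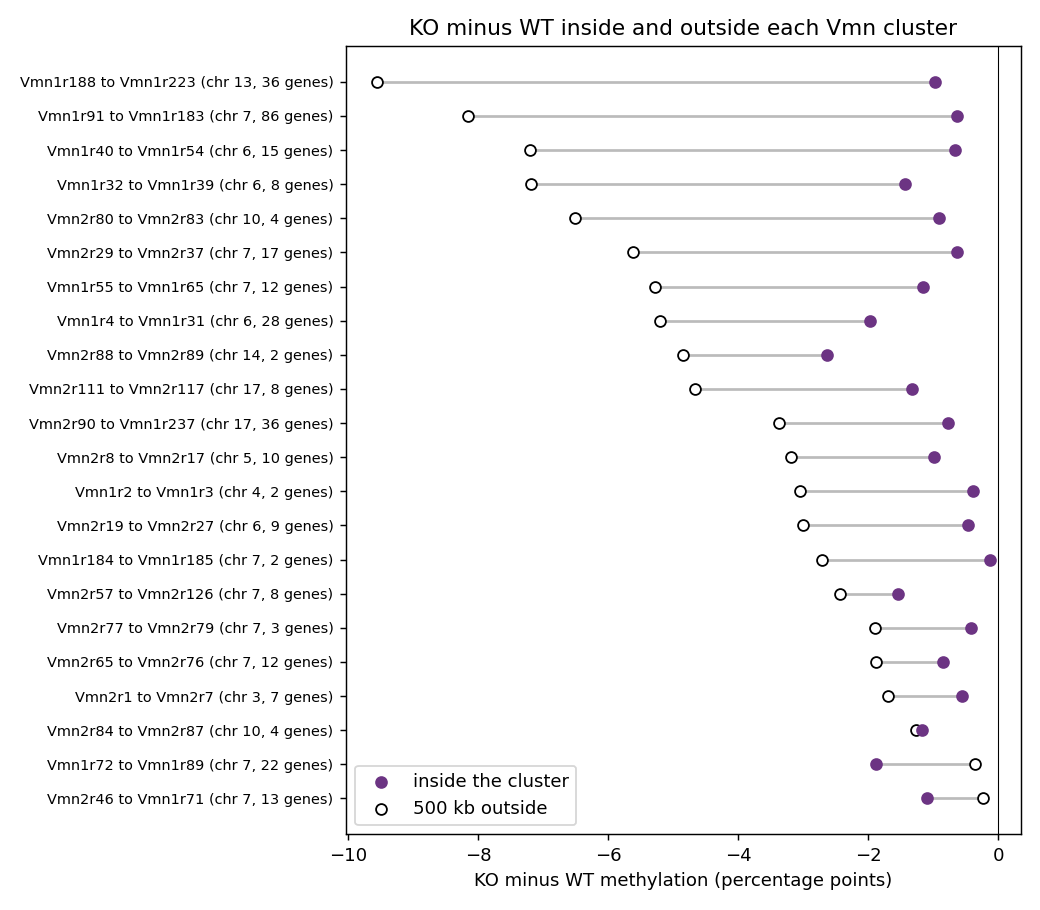
Difference KO minus WT in percentage points for each of 22 Vmn clusters, inside (filled) and in the 500 kb outside (open), ordered by the outside value. Filled points lie between -2.64 and -0.132 and open points between -9.56 and -0.245, with 2 clusters on chromosome 7 at the bottom where the inside loss is the larger; after centring all filled points are positive.

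Windows of 100 kb gave the same split with a test of each. A window was called at a limma adjusted p under 0.05 over 23818 windows with at least 20 tiles, which 78.1% of all windows met with a loss and 0.113% with a gain. In clusters 52 of 199 windows fell, or 26.1%, and 1 rose, against 138 and 2 of 199 windows in the 500 kb outside, where 69.3% fell. With a minimum of 5 points, met by a loss in 41.4% of all windows, 4 cluster windows and 63 outside windows fell and 0 rose in either (0.0168% of all windows). Without KO replicate 1 the count in clusters was 34. After centring 3 cluster windows were lower and 189 higher, and outside 49 were lower and 103 higher, while over all windows 7524 were lower and 10559 higher.

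The 4 cluster windows that lost at least 5 points all held a valley tile and genes that are no vomeronasal receptors. One on chromosome 6 from 56900001 to 57000000 holds Vmn1r4, Vmn1r5 and the nucleotidase gene Nt5c3. It was at 58.1, 58.8 and 59.3% in KO and 65.9, 65.0 and 65.4% in WT (limma, adjusted p = 2.99e-09). One on chromosome 7 from 13000001 to 13100000 holds Vmn1r85 and, among others, Trim28, and was at 52.7, 51.3 and 51.8% in KO and 60.1, 58.8 and 58.8% in WT (limma, adjusted p = 1.44e-09). The window on chromosome 17 from 17800001 holds Spaca6, the hyaluronan synthase gene Has1 and the formyl peptide receptor genes Fpr1 and Fpr2, and was at 55.1, 56.0 and 54.9% in KO and 62.3, 60.2 and 59.6% in WT. The single window that rose, on chromosome 7 from 20800001, holds just Vmn1r114 to Vmn1r117 and was at 59.6, 62.0 and 61.4% in KO and 58.7, 59.3 and 59.3% in WT (limma, adjusted p = 0.0262). It had 21 tiles, and its call was lost without KO replicate 3 and without WT replicate 1.

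Unmethylated valleys were rare in the clusters and common beside them. A valley tile was 1 of 330 Vmn1r tiles, 0 of 1701 Vmn2r tiles, 58 of 12466 cluster tiles (0.465%) and 440 of the 15135 tiles outside (2.91%), against 1.56% of all tiles. The median distance to the nearest valley was 274 kb in clusters, 35 kb outside and 67 kb over all tiles. In cluster windows with a valley tile 18 of 28 fell, or 64.3%, with a median difference of -2.23 points. In those without, 34 of 171 fell, or 19.9%, with a median of -0.759. Both shares lie below the 78.1% of all windows that fell, and all windows were not split by valley tiles. Valley tiles were found with the levels of all 6 samples, so a tile that KO lowers is more easily counted as one.

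**Figure D5:**
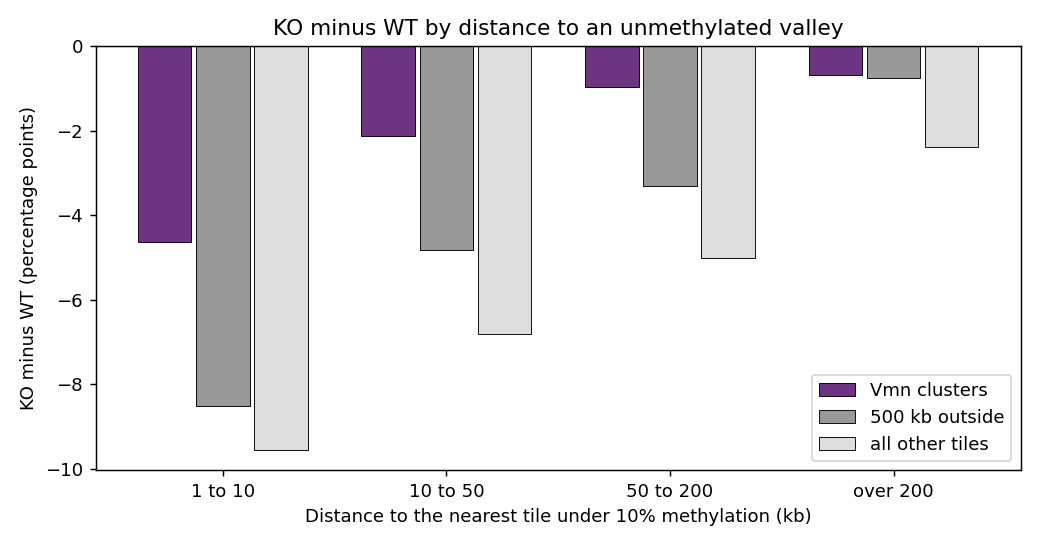
Mean difference KO minus WT in percentage points by distance to the nearest tile under 10% methylation, for tiles in Vmn clusters, in the 500 kb outside and elsewhere. Bars shrink with distance in all 3, for clusters with -4.64 points at 1 to 10 kb and -0.685 beyond 200 kb (as deposited; centring adds the same amount to every bar).

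Distance to a valley moved with the difference, and the clusters stood apart at most distances. At 1 to 10 kb from a valley cluster tiles were at 69.0, 69.2 and 69.1% in KO and 74.4, 73.3 and 73.5% in WT, a difference of -4.64 points, against -8.51 outside and -9.56 elsewhere. At 10 to 50 kb the differences were -2.12 in clusters, -4.84 outside and -6.81 elsewhere, and at 50 to 200 kb -0.977, -3.32 and -5.01. Most cluster tiles, 60.2%, lie more than 200 kb from a valley, and there they were at 58.4, 59.0 and 58.7% in KO and 59.7, 59.6 and 58.8% in WT. The groups overlapped, at -0.685 points, and the tiles outside differed by -0.767 points, against -2.39 elsewhere. Over tiles more than 50 kb from a valley, clusters minus outside was -2.91, -3.08 and -3.11 points in KO and -4.58, -4.46 and -4.77 points in WT, a difference of 1.57 points (exact permutation p = 0.10), against 3.46 points over all tiles. The part of valley distance in the result was not tested beyond this.

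Clusters also differed from their surroundings within broad classes of level, which do not match levels exactly. Among tiles at 10 to 50% in the mean of all samples, cluster tiles were at 43.99, 44.5 and 44.5% in KO and 45.4, 45.7 and 44.4% in WT. Their groups overlapped, at -0.810 points, while the tiles outside in this class differed by -8.71 and those elsewhere by -10.9. At 50 to 80% the differences were -1.10 in clusters, -4.30 outside and -5.11 elsewhere, and at 80% and over -1.65, -3.03 and -3.90. Highly methylated tiles were scarce in the clusters, with 6.46% ± 0.220 of tiles at 80% or more in KO and 8.09% ± 0.566 in WT, against 13.5% ± 0.238 in KO and 21.5% ± 1.28 in WT outside. The classes use all samples, which places a tile that one group lowers in a lower class.

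Genes of the vomeronasal system other than the receptors were read as lists. Of 12 genes of signal transduction, none in a receptor cluster, 8 fell and 0 rose (limma), with a median difference of -6.61 points as deposited, -1.71 after centring and -4.30 after scaling; over all genes 48.9% fell and the median was -5.03 points. Omp, which encodes the olfactory marker protein, was at 59.8% ± 2.18 in KO and 82.1% ± 0.957 in WT. Itpr3, an inositol trisphosphate receptor gene, was at 55.8% ± 1.15 in KO, against 72.8% ± 1.03 in WT, and Gnao1, the G protein subunit of V2R neurons, at 60.7% ± 1.16 in KO and 70.9% ± 0.581 in WT. All 3 fell without overlap (limma, adjusted p = 2.30e-05, 2.36e-05 and 6.52e-05), and Gnao1 no longer passed after scaling. Trpc2, the main channel of vomeronasal transduction, was singled out after its values were seen; it was at 68.3% ± 1.83 in KO and 79.6% ± 1.69 in WT.

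The counts of the next lists stand beside 48.9% of all genes that fell and 0.237% that rose. Of 9 genes of neuron identity 3 fell and 0 rose. Their median of -2.93 points turned to 1.96 after centring and stayed at -1.42 after scaling. After centring 1 was lower and 1 higher, and after scaling 2 were lower and 0 higher. Those that fell as deposited were the transcription factor genes Meis2 (55.8% ± 0.435 in KO, 70.0% ± 1.13 in WT), Bcl11b (54.3% ± 0.731 in KO, 63.8% ± 0.126 in WT) and Nhlh1 (31.8% ± 1.62 in KO, 41.1% ± 2.53 in WT). Of 9 H2-Mv genes, class Ib histocompatibility genes expressed with V2Rs, 2 fell and 0 rose, with a median of -2.92 points as deposited and 1.97 after centring; 1 was lower after centring and 0 after scaling. H2-M10.3 was at 62.0% ± 3.06 in KO, against 73.3% ± 2.67 in WT, and H2-M10.2 at 70.1% ± 2.98 in KO and 77.4% ± 4.14 in WT. The call of H2-M10.2 ended under both, and that of H2-M10.3 after scaling.

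The 7 formyl peptide receptor genes, some of which vomeronasal neurons use, all lie inside receptor clusters. Of these 0 fell and 0 rose in limma (0 also at an unadjusted p under 0.05), against 48.9% and 0.237% of all genes. Their differences lay between -4.61 and 3.75 points, with a median of -0.07, or 4.82 after centring. After centring and after scaling 2 were called higher, against 3.20% and 4.18% of all genes, while 16.8% and 17.3% were lower. The same shares of all genes, each under its own setting, apply to the lists that follow here. Among pheromone genes, 0 of 15 measured Mup genes (major urinary proteins) fell and 1 rose (2 after centring and after scaling), with a median of -0.89 points, or 3.998 after centring. That gene, Mup21, was at 69.0% ± 1.45 in KO and 62.9% ± 0.524 in WT (limma, adjusted p = 0.000862). Of 15 Esp genes (exocrine gland-secreted peptides) 2 fell and 0 rose, with a median of -0.25 points, or 4.64 after centring; after centring and after scaling 0 were lower and 4 higher, so that both calls ended. Esp36 was at 51.8% ± 8.37 in KO, against 62.8% ± 1.38 in WT, and Esp5 at 63.7% ± 0.975 in KO and 69.1% ± 1.79 in WT.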

How the data were processed

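Bisulfite libraries made by tagmentation were sequenced over the whole genome for 3 KO and 3 WT samples, with 30 ng of DNA, 3 libraries per sample and paired reads of 100 bp, per the labels' protocols. The submitters' processing notes name BWA 0.7.8 and mm10; not given in the sources used here are the methylation caller, any coverage filter or smoothing, and the choice of tiles. The authors deposited 1 table with the methylation level of each 1 kb tile and sample as a fraction, with no read counts. Depth is therefore unknown, and the logistic model planned for counts was replaced by the planned test on levels.

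Levels were multiplied to percent. Tiles, protein-coding genes (mean of overlapping tiles) and 100 kb windows with at least 20 tiles were each tested with limma 3.58.1 in R 4.3.3, with a variance trend and Benjamini-Hochberg adjustment over all features of the kind. Single values per sample were compared by a two-sided exact permutation test. Python 3.11.15 made the tables (pandas 2.3.3, numpy 2.4.6) and the figures (matplotlib 3.10.9). Gene positions and start windows came from RefSeq (GRCm38.p6).

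Members and lists were chosen with earlier results of these data known. Named genes were, per family and above a minimum number of tiles (5 for Vmn2r, 2 for Vmn1r), the 5 most negative and 3 most positive differences, the 3 highest and 3 lowest levels and up to 5 called genes of smallest p. Every cluster of at least 3 genes, the 5 tiles of smallest p in each direction and up to 3 called members of each list were named too. The values of 1 called cluster window are not reported here. Alternatives changed the centring, scaling, variance trend, logit scale, minimum difference, gap, outside distance, weighting, the tiles used, the samples and the replicate block.

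The limma steps were tested on simulated data. Among 100000 tiles, losses of 10, 20 and 30 points were called in 1, 38 and 82% of cases. Among 20213 genes, losses of 2, 5 and 10 points were called in 0.5, 21.5 and 77.5% of cases, and among 23818 windows in 12, 88 and 100% of cases. Just 200 features were lowered per size, far fewer than were called in the data, which makes the adjusted threshold stricter than in the data. Losses of 10 points in tiles and 5 in genes also equal the minimum difference. These shares are therefore not the sensitivity of the calls above. Features left unchanged were called in 0.00805% of tiles, 0.0204% of genes and 0.0775% of windows.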

Additional observations from a re-analysis of the deposited data

How the results depend on the processing

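Centring and scaling had the largest effect. They turned the mean difference of Vmn1r tiles to 3.35 and 3.19 points and that of Vmn2r tiles to 4.32 and 4.11. After centring and after scaling, 4 and 5 Vmn1r tiles were called higher, 2 and 3 Vmn2r tiles lower, and 47 and 53 Vmn2r tiles higher. Over all tiles these settings gave 6.64 and 6.58% lower and 0.931 and 1.57% higher. Under both, 0 Vmn1r and 0 Vmn2r genes were lower, while 25 and 26 Vmn1r genes and 28 and 27 Vmn2r genes were higher. Over all genes 16.8 and 17.3% were lower and 3.20 and 4.18% higher. Cluster windows came to 3 lower under both and to 189 and 191 higher, and outside windows to 49 and 44 lower and 103 and 110 higher. Over all windows 31.6 and 27.2% were lower and 44.3 and 51.1% higher. Without the variance trend 2 Vmn1r tiles were lower and 9 Vmn2r tiles higher. A minimum of 5 points, or none, gave 1 lower Vmn1r tile. At a minimum of 10 points 0 Vmn1r genes were lower, 0 higher and 0 Vmn2r genes lower, and with no minimum 4 Vmn2r genes were lower. At a minimum of 5 points 4 cluster windows were lower and 0 higher, and 63 outside windows lower and 0 higher. With tiles wholly inside genes 1 Vmn1r gene was lower and 0 higher. A gap of 200 kb gave 33 lower cluster windows (of 154) and 1 higher outside window. With 250 kb outside 62 windows were lower (of 103), and with 1000 kb 276 (of 363).

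Leaving out 1 sample gave 0 to 2 lower and 0 to 1 higher Vmn1r tiles, 9 to 13 lower and 1 to 7 higher Vmn2r tiles, and 2 to 4 lower and 0 to 2 higher Vmn2r genes. It gave 34 to 68 lower and 0 to 1 higher cluster windows, and 0 to 3 higher outside windows. The clusters minus outside difference stayed between 3.35 and 3.57 points. In 3 alternatives chosen after seeing the data it was 3.50 without pseudogene tiles outside, 3.11 without 2 sparsely measured clusters and 2.496 without tiles up to 10 kb from a valley.

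Samples with the same replicate number did not deviate together (r = 0.00563, -0.00321 and 0.0110). With the replicate number as a block, 21 Vmn2r tiles were lower and 4 higher, 14 Vmn1r genes lower, 51 cluster windows lower, and 1 outside window higher. The cause of these changes was not tested. Depth is unknown, so counting error could not be set beside any level.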

Other observations

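Losses in runs of neighbouring tiles were also seen in Vmn2r genes that the naming rule does not reach, and these were chosen after their values were seen. In Vmn2r65 on chromosome 7 the tiles from 84945001 and 84946001 were at 59.0% ± 1.18 and 59.6% ± 0.533 in KO, against 71.4% ± 3.36 and 72.2% ± 3.56 in WT. In Vmn2r94 on chromosome 17 the tiles from 18271001 and 18272001 were at 56.9% ± 3.50 and 57.7% ± 2.49 in KO, against 69.3% ± 1.70 and 70.1% ± 1.74 in WT. Neighbouring tiles of Vmn2r7 and Vmn2r67 were also called; each fell by 12.6 to 14.2 points. In all 8 tiles every KO sample lay below every WT sample (limma, adjusted p between 0.0131 and 0.0406). After centring and after scaling all 8 lost their call.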
